A study of Homo sapiens with 7 samples.

Results

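ATF4 binding was compared between DLD-1 MycER cells in which MYC had been switched on and control cells, over all merged regions of the 4 ATF4 peak lists. DLD-1 is an established human colon adenocarcinoma line, and every sample, controls included, came from cells infected with a retrovirus for MycER, a MYC protein fused to the hormone-binding part of the estrogen receptor that stays inactive until 4-hydroxytamoxifen is added. The activated group (replicates 1 and 2) had received 500 nM of 4-hydroxytamoxifen for 8 hr, and the control group (replicates 1 and 2) had received vehicle. ATF4 was immunoprecipitated, and the attached DNA was sequenced (ChIP-seq). Peaks of the 4 lists were joined where they shared 1 bp or more, which gave 5091 regions from 5996 ATF4 peaks, out of 37164 peaks in the 6 lists of the series. Of these regions, 3149 had a peak in an activated library and 2344 had one in a control library. Cells that lack MycER were not given the inducer in any group, so effects of 4-hydroxytamoxifen and of active MYC cannot be told apart. Whether the replicates are separate cultures is not in the labels, so the spread among these 4 libraries, and any p-value drawn from it, may be technical. A limma p-value here rests mostly on a spread pooled over the regions, not on the values of 1 region alone. It treats the regions as independent, although they come from the same 4 libraries. The lists hold binding and no expression, so neither the colon origin of the cells nor the activation of MYC could be checked from them.

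ATF4 is a bZIP transcription factor of the integrated stress response. When an eIF2α kinase senses a lack of amino acids, unfolded protein in the endoplasmic reticulum, a lack of heme or double-stranded RNA, general translation falls while ATF4 messenger RNA is translated better, and ATF4 then turns on genes of amino acid synthesis and uptake, tRNA charging, redox balance and stress feedback. ATF4 binds DNA as a dimer with a C/EBP protein or another bZIP partner, often at a composite element that joins a C/EBP site to an ATF site and that is also called the amino acid response element. MYC raises protein synthesis and the demand for amino acids, and the comparison addresses whether ATF4 occupies other sites, or the same sites more strongly, once MYC is active.

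The sequences under the reproducible promoter regions are shown first, since the composite element was the feature that most of them shared. A region was called reproducible when both libraries of a condition had a peak there. Promoter sequences of 300 bases (250 before and 50 after a start site) came from RefSeq for GRCh38.p14, and 36 of the 45 genes at reproducible regions had one. A search on both strands for TGATGNAA, the core of the composite element, found it within the region in 13 of the 19 promoters that a reproducible region covered (68.4%), which belonged to 12 of 16 regions. Over all 22199 promoters of the table, 598 held it anywhere in their 300 bases (2.69%). In 35 promoters covered by regions that were not reproducible, 9 held it (25.7%). The motif centre lay 0 to 30 bp from the centre of the region at all 12 places, with a median distance of 9.5 bp. The following stretches run 5′ to 3′ on the strand of the gene, and capitals mark the match to the core or to its reverse complement, TTNCATCA.
CHAC1, +, chr15:40953232-40953299: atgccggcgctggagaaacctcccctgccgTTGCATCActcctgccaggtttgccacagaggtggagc
FGF21, +, chr19:48755440-48755507: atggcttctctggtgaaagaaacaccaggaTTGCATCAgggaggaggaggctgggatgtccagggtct
ASNS, −, chr7:97872439-97872506: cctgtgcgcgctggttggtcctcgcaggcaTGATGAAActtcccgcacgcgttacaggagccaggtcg
SLC1A5, −, chr19:46784874-46784941: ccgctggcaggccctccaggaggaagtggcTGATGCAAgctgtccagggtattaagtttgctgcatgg
TBL1X, +, chrX:9463217-9463284: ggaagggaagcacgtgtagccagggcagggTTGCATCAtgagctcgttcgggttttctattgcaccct
PLEKHH3, −, chr17:42677163-42677230: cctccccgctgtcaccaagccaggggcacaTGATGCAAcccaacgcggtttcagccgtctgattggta
PSAT1, +, chr9:78296889-78297094: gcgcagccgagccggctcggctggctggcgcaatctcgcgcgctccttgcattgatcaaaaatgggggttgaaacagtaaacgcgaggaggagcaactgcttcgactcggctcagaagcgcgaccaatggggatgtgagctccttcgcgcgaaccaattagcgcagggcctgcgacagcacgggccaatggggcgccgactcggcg

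At 10 of the 12 places the core read TGATGCAA on one strand, and ASNS carried TGATGAAA. The place at FGF21 is shared with FUT1, which is transcribed the other way. PSAT1, shown over the whole of its activated-only region, had no match, and neither did the covered part of PCK2 or ISL2. By state, the core was present at 6 of 9 promoters with regions in both conditions, 2 of 4 with activated-only regions, and 5 of 6 with a region in both activated and 1 control library. Other bZIP and MYC motifs were scarcer in the same 19 promoters, with 1 holding the cyclic AMP response element TGACGTCA (2.26% of all promoters), 1 holding the AP-1 site TGANTCA (6.15%) and 2 holding the E-box CACGTG, the site of MYC (8.34%). One of the E-boxes can be read in the TBL1X stretch, to the left of the composite core. A match describes the letters in the window, not binding, and sequence outside the promoter windows was not used here.

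The libraries differed in depth by replicate number, and that has to stand beside every comparison. Activated replicates 1 and 2 held 24.9 and 49.8 M tags, and control replicates 1 and 2 held 22.4 and 50.3 M, so replicate 2 rests on more reads in both conditions. Signal is the authors' normalized tag count, scaled to 10 M tags per library and called tags here, and its median per peak was 4.81 and 3.62 in activated replicates 1 and 2, against 5.36 and 3.78 in control replicates 1 and 2. The lowest listed value was 3.21 and 2.81 tags in activated libraries, against 4.46 and 2.98 in control libraries. A site without a listed peak may thus carry signal under these floors. A tag count also cannot tell more cells with ATF4 at a site from more ATF4 at that site in each cell. The fold over the background library that the authors list was at least 4 for 63.9% and 55.1% of peaks in activated replicates 1 and 2, against 56.2% and 41.2% in control replicates 1 and 2. The 10 highest peaks of activated replicate 1 all had folds under 2, as did the 10 highest of control replicate 1, whereas 0 of 10 did in activated replicate 2 and 6 of 10 in control replicate 2.

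Activated libraries held more peaks, and most regions of either condition were found in a single library. Activated replicates 1 and 2 listed 1270 and 2231 peaks, against 916 and 1579 in control replicates 1 and 2. The ratio was 1.39 in replicate 1 and 1.41 in replicate 2. Counting only peaks of at least 4.46 tags, the highest of the 4 floors, it was 1.05 in replicate 1 (958 against 916) and 2.11 in replicate 2 (587 against 278). In the full lists control replicate 2 exceeded activated replicate 1, so the groups overlapped. The two-sided exact permutation test over libraries gave p = 0.667, where the smallest p that the design allows is 0.333. Of the 5091 regions, 4520 (88.8%) had a peak in 1 library alone, with 795 and 1800 in activated replicates 1 and 2, against 654 and 1271 in control replicates 1 and 2. Regions in all 4 libraries numbered 105 (2.06% of all regions), regions in both activated and neither control library numbered 152 (2.99%), and regions in both control and neither activated library numbered 17 (0.334%). A further 95 regions had a peak in both activated libraries and 1 control library, against 29 with a peak in both control libraries and 1 activated library. Counting peaks from a fold of 4 up, the activated-only regions numbered 131 and the control-only regions 1, and regions in all 4 libraries 82.

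**Figure D1:**
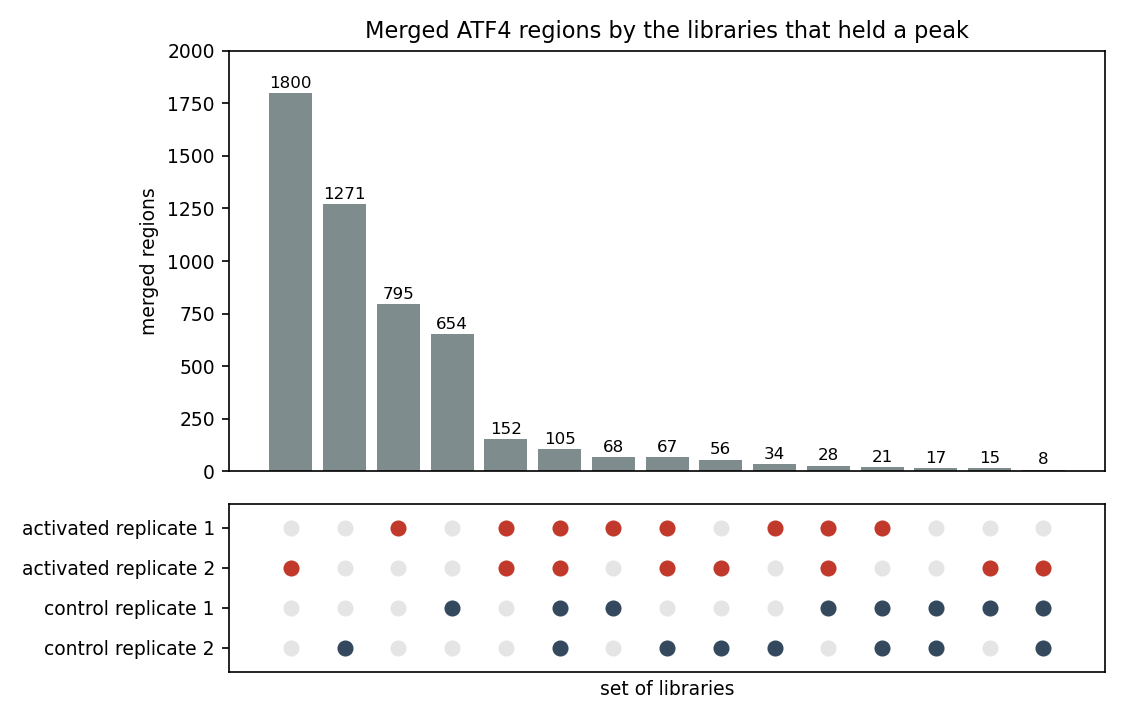
Number of merged ATF4 regions (bars, linear axis) for each set of libraries with a peak there, marked by filled dots under each bar. The 4 largest sets are regions of 1 library, and the set of both activated libraries (152) is larger than the set of both control libraries (17).

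Strong sites of one condition were mostly found again in the other, and weak sites mostly were not. Among regions with a fold of at least 4 and at least 12 tags, 39 of 41 in activated replicate 1 had a peak in control replicate 1, and 49 of 52 in activated replicate 2 had one in control replicate 2. At 8 to 12 tags the shares were 65.6% and 62.2%, at 6 to 8 tags 23.5% and 33.1%, and at 4 to 6 tags 2.80% and 8.86%. In the other direction, all 24 regions of control replicate 1 with at least 12 tags, and all 9 of control replicate 2, had a peak in the activated library of the same number. At 8 to 12 tags these were 20 of 21 and 14 of 14, at 6 to 8 tags 48.5% and 93.9%, and at 4 to 6 tags 8.91% and 47.2%. Between the activated libraries themselves, 82.4% of the replicate 1 regions with 6 to 8 tags were found again in replicate 2, and between the control libraries 42.4%. From replicate 2 to replicate 1 the order was the opposite, with 61.9% between the activated libraries and 69.7% between the control libraries. These shares describe lists with different floors and depths, and the difference between directions was not tested.

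**Figure D2:**
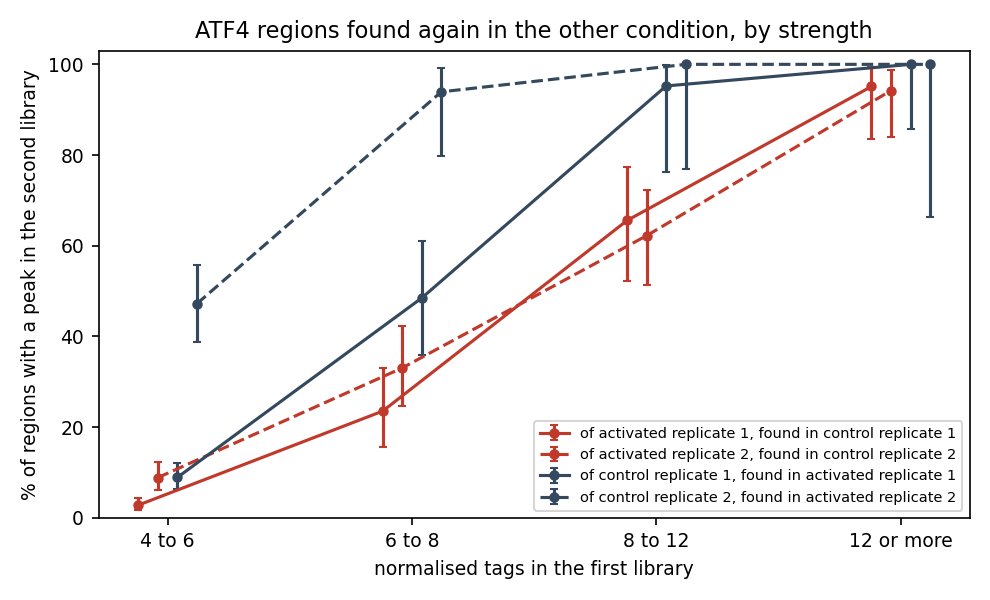
Percentage of ATF4 regions of 1 library (fold of at least 4) that also had a peak in the library of the other condition with the same replicate number, by normalised tags in the first library, with exact 95% binomial intervals that cover counting error only. In each of the 4 pairings the share grows with strength and reaches at least 94.2% at 12 or more tags.

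At the 105 regions called in every library, the common regions, ATF4 signal was higher after activation at many and lower at few. The median log2 change on the log2(tags + 1) scale was 0.54 (0.37 in replicate 1 and 0.74 in replicate 2), with 95 regions above 0 and 10 below. Both activated values exceeded both control values at 77 regions (73.3%), both were lower at 3 (2.86%), and the groups overlapped at 25. In limma's test across the regions, 39 of 105 (37.1%) rose at a Benjamini-Hochberg adjusted p under 0.05 and 0 (0%) fell, with 57 higher and 0 lower at an unadjusted p under 0.05. By edgeR on the recovered whole tags with library totals, 52 of 105 (49.5%) rose and 0 fell, and 38 regions rose by both tools. Regions at a gene end rose in 6 of 14 cases, regions inside genes in 19 of 46 and regions between genes in 14 of 45. A gene end here is an outer end of the gene's span, so regions at start sites within a span, as at ASNS and SLC1A5, counted as inside genes. The calls rest on scaling to library depth and, in limma, on a fit without a term for the replicate number (a replicate block). With that block, 0 regions passed in limma (smallest limma adjusted p 0.115). By edgeR with the block and library totals, a setting chosen after seeing the data, 35 rose. Centring each library on its own median over these regions gave a median change of −0.11 in place of 0.54, with 0 regions higher and 9 lower, and leaving out any 1 library left 0 past the threshold (smallest adjusted p 0.0623 to 0.164).

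**Figure D3:**
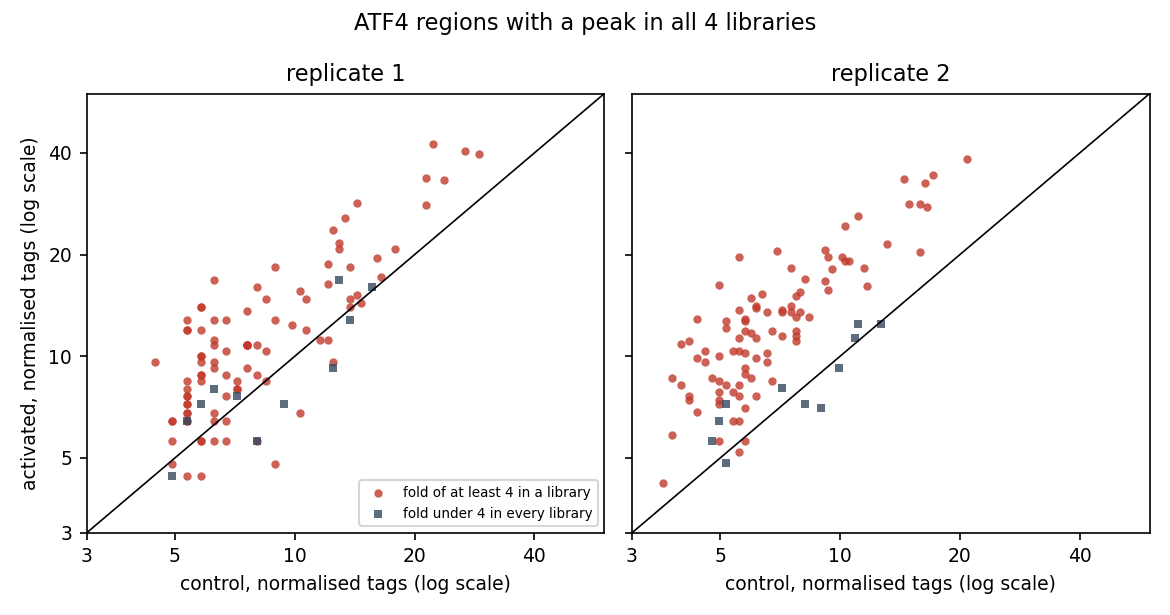
Normalised ATF4 tags (log axes) of the 105 regions with a peak in all 4 libraries, activated (vertical) against control (horizontal), by replicate number, with the line of equal values. Circles are the 94 regions with a fold over background of at least 4 in a library, most of them above the line, and squares are the 11 regions under 4 in every library, which lie about the line.

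The largest changes lay partly at textbook ATF4 targets and partly far from any start site. ASNS, which makes asparagine from aspartate, had 14 and 15.3 tags in activated replicates 1 and 2, against 5.8 and 6.36 in control replicates 1 and 2, at a region centred 57 bp upstream of its start site (chr7:97872341-97872590). Its groups were well apart, with a log2 change of 1.14 ± 0.29 (SE, limma adjusted p = 0.00601). CHAC1, which degrades glutathione, had 28.5 and 24.3 tags after activation, against 14.3 and 10.3 in control cells, 185 bp upstream of its start site (chr15:40953180-40953393). The log2 change was 1.06 ± 0.30 (SE, limma adjusted p = 0.00904), and no value of either group overlapped the other. The highest of all was inside TEK, an endothelial receptor tyrosine kinase, 85069 bp into the gene (chr9:27194394-27194644), with 16.8 and 18.3 tags in activated cells and 6.25 and 7.55 in control cells (log2 change 1.24 ± 0.29, SE, limma adjusted p = 0.00309). Relative to the median of the common regions, that is after centring, the changes were 0.59 at TEK, 0.50 at ASNS and 0.41 at CHAC1, and none passed.

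The other regions among the 10 with the largest change rose by log2 changes between 0.97 and 1.11. FNDC3B, a membrane protein of the endoplasmic reticulum, had 15.6 and 19.7 tags inside the gene after activation, against 10.3 and 5.57 in control cells. The region 15069 bp from CYP2A7 had 20.8 and 20.5 tags, against 12.9 and 6.96, and the one nearest to VEGFA, 140342 bp away, had 25.7 and 26.1, against 13.4 and 11.1. VEGFA encodes an angiogenic growth factor that ATF4 is known to induce. PGPEP1 had 10.8 and 16.3 tags in activated cells, against 7.59 and 4.97 in control cells, at a region inside the gene that lay 20995 bp upstream of the start of GDF15, a stress hormone of the same locus. ATXN1 had 16 and 13.9 tags against 8.04 and 6.16, and EEIG1 had 12.8 and 13.5 against 5.36 and 7.16. In each of these the 2 activated values exceeded both control values, and control replicate 1 lay well above control replicate 2 at FNDC3B and at the region near CYP2A7.

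Of the 8 strongest regions in all 4 libraries, 2, at FGF21 and CHAC1, were also among the 10 with the largest change, and 3 of the 8 rose by limma. DDIT4, also called REDD1, an inhibitor of mTORC1, had 40.5 and 38.4 tags in activated cells and 26.8 and 20.9 in control cells, 1008 bp upstream of its start site (chr10:72272806-72273027). The groups did not overlap, yet the log2 change of 0.71 ± 0.33 (SE) did not pass in limma (limma adjusted p = 0.0721). It passed by edgeR with library totals (edgeR adjusted p = 0.0436), but not with a replicate block added (edgeR adjusted p = 0.183). SLC43A1, which carries branched-chain and other large amino acids, had 39.7 and 32.6 tags inside the gene, against 29 and 16.3 (log2 change 0.70, limma adjusted p = 0.0721). SLC7A5, the light chain of another such carrier, had 33.3 and 28.3 tags inside the gene, against 23.7 and 15.9 (0.63, limma adjusted p = 0.0865). TBC1D16, a Rab GTPase activator, passed with 33.7 and 34.4 tags inside the gene, against 21.4 and 17.1 (0.80, limma adjusted p = 0.0408). The other regions among the 8, 9169 bp from TCP11L2 (28.1 and 28.3 against 21.4 and 14.9) and 13095 bp from KLHDC4 (20.8 and 27.7 against 17.9 and 16.5), did not pass. At all 8, both activated libraries were above both control libraries.

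The 5 regions with the lowest change had small differences, and none passed the test. The region 35093 bp from CWH43 had 9.22 and 9.24 tags in activated cells, against 12.5 and 9.94 in control cells, a log2 change of −0.25 (limma adjusted p = 0.469) at a fold over background of at most 2.16. TPST2, a tyrosylprotein sulfotransferase, had 4.41 and 5.63 tags inside the gene, against 5.8 and 5.77 (−0.18). At SPATA9 the values were 4.41 and 4.82 against 4.91 and 5.17. The activated values were below both control values at these 3 regions. At the region 3496 bp from LOC124902669 the values of 4.81 and 10.2 in activated cells enclosed the 8.93 and 6.56 of control cells. LOC112268044 had 5.61 and 5.63 against 8.04 and 4.77. After centring, these 5 regions passed as lower, along with the regions at ARHGAP18, LOC101927345, LOC124905368 and MYC.

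A region inside the MYC gene had a peak in every ATF4 library. It held 7.22 and 8.04 tags in activated replicates 1 and 2, against 9.38 and 7.16 in control replicates 1 and 2, with a largest fold over background of 2.39. The groups overlapped (log2 change −0.09, limma adjusted p = 0.796). The region was chosen after its values were seen, and the retroviral copy of MYC in these cells shares sequence with the gene; whether it gave part of these tags was not tested.

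Higher signal after activation was seen mainly at regions with a fold over background of at least 4, a class that the activated libraries helped to set. Among the 94 common regions with a fold of at least 4 in a library, the median log2 change was 0.60 and 39 rose, whereas among the 11 regions under 4 the median was −0.04 and 0 rose. Beyond the common regions, 222 regions had a peak in both conditions of replicate 1 and 236 in both of replicate 2. With a fold of at least 4, the median log2 difference was 0.35 in replicate 1, where 93 of 123 regions were higher in the activated library, and 0.67 in replicate 2, where 175 of 185 were. With a fold of 2 to 4 it was −0.14 over 36 regions in replicate 1 and 0.01 over 42 in replicate 2. Under a fold of 2 it was −0.10 over 63 regions in replicate 1, with 14 higher and 48 lower, and −0.07 over 9 regions in replicate 2. The classes were set from the largest fold of a region over the 4 libraries, which include those compared. A region can thus enter the top class through its activated libraries alone, as XBP1 did (folds 5.55 and 5.22 activated, 3.54 and 3.07 control). These values, and the limma counts by class, are a description with no test of the classes.

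**Figure D4:**
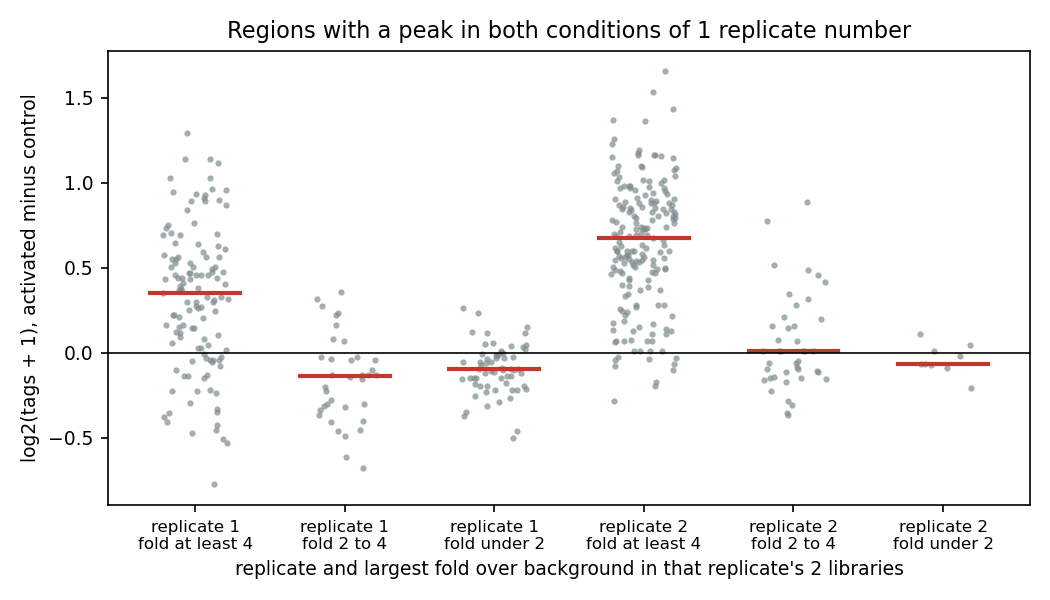
Difference in log2(tags + 1), activated minus control, at each ATF4 region with a peak in both conditions of 1 replicate number (points), with medians as bars. Columns are by replicate number and by the region's largest fold over background in any of the 4 libraries. The axis label names that replicate's 2 libraries, but the classes use all 4. Medians are 0.35 and 0.67 for folds of at least 4 in replicates 1 and 2 and lie between −0.14 and 0.01 in the other 4 classes.

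Regions under a fold of 2 in every library with a peak numbered 378, of which 270 lay between genes, 91 inside genes and 17 at gene ends. The share between genes was 71.4%, beside 49.6% of all 5091 regions. The strongest of them came from replicate 1 of both conditions, and 49 were found in exactly that pair. The one with the highest single value (chr3:93470495-93470679) had 101.4 tags in activated replicate 1 and 144.2 in control replicate 1, at folds of 1.32 and 1.76, and no peak in either replicate 2 library. A region on chromosome 16 (chr16:46390581-46390765), with a higher mean, had 116.6 and 135.7 tags in the same libraries, and one on chromosome 1 (chr1:125183694-125183883) had 93.8 and 109.4. Control replicate 1 was above activated replicate 1 at all 3, which are higher than any ATF4 region at a named gene.

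Genes of amino acid supply and of the stress response were counted over lists of 123 genes in all. The lists were chosen with earlier results of these data known, so their counts beside all genes are a description. A gene counted when a region lay within 1000 bp of either end of its span, called a gene end. ASNS, SLC1A5 and SLC3A2, with regions at start sites inside their spans, therefore did not count. In activated replicates 1 and 2, 21 and 31 of the 123 genes had a region at an end, against 10 and 16 in control replicates 1 and 2. Over all 20043 protein-coding genes the numbers were 95 and 230 in activated and 74 and 130 in control libraries. A region in both activated libraries was found at 20 of the 123, against 44 of all genes (0.22%), and one in both control libraries at 8 of the 123, against 16 of all genes (0.0798%). Any library gave 33 of the 123, against 430 of all genes (2.15%). Autophagy genes and endoplasmic reticulum chaperones, with 12 genes each, had 0 gene ends with a region in any library, and so did 12 genes of neurons and blood cells that served as markers of other lineages. The window matters here, since a common region between genes was nearest to HSPA5, an endoplasmic reticulum chaperone. It had 19.6 and 21.5 tags in activated replicates 1 and 2, against 16.1 and 13.1 in control replicates 1 and 2 (log2 change 0.47, limma adjusted p = 0.18).

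In the synthesis of serine and glycine and in one-carbon metabolism, 4 of 10 genes had a gene-end region in both activated libraries and 1 in both control libraries. PHGDH, which commits 3-phosphoglycerate to serine, had 8.02 and 11.9 tags in activated replicates 1 and 2, against no peak and 6.96 in control replicates 1 and 2. PSAT1, the next enzyme, had 6.41 and 6.63 tags 134 bp upstream of its start site and no control peak. MTHFD2, a mitochondrial folate enzyme, had 4.41 and 9.44 tags at its start and 4.81 and 5.83 at a second region 10204 bp further on, with no control peak at either. SHMT2, which turns serine into glycine in mitochondria, had 14.8 and 13.1 tags at a gene end, against 13.8 and 8.35, and its groups overlapped (log2 change 0.34, limma adjusted p = 0.302). PSPH, the last enzyme of serine synthesis, had a region inside the gene in replicate 2 alone, with 5.02 tags activated and 4.57 control.

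Among 12 genes of asparagine, alanine, proline and related pathways, ASNS and PCK2 were the ones with a common region, and both rose. PCK2, the mitochondrial enzyme that makes phosphoenolpyruvate, had 23.7 and 18.3 tags 302 bp upstream of its start site, against 12.5 and 11.5 in control cells, with no overlap (log2 change 0.75 ± 0.29, SE, limma adjusted p = 0.0397). GPT2, an alanine aminotransferase, had 4.41 and 7.23 tags in activated cells and no control peak, and 4.41 lies under the floor of control replicate 1. ASS1, which makes argininosuccinate, had 8.42 and 7.64 tags inside the gene, 3269 bp past its start site, and no control peak at that region. GOT1, an aspartate aminotransferase, had 4.42 tags in activated replicate 2 and no other peak.

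Amino acid carriers had 4 common regions, at SLC1A5, SLC43A1, SLC7A5 and SLC7A11, and 1 of them rose by limma, against 3 by edgeR with library totals, where SLC43A1 (edgeR adjusted p = 0.0461) and SLC7A11 (0.0224) passed too. SLC1A5, a glutamine carrier, had 11.2 and 16.7 tags 77 bp upstream of its start site, against 6.25 and 9.14 in control cells (log2 change 0.78 ± 0.29, SE, limma adjusted p = 0.0315). SLC7A11, the cystine carrier, had 6.41 and 11.9 tags at a gene end, against 5.36 and 5.77, and did not pass (0.58, limma adjusted p = 0.0728). SLC3A2, the heavy chain that carries SLC7A5 and SLC7A11 to the membrane, had 6.81 and 10.4 tags in activated cells, against 9.82 and no peak in control cells. SLC38A2, a neutral amino acid carrier, had 4.81 and 8.84 tags against no peak and 3.98, and its relative SLC38A1 had 6.01 and 6.03 with no control peak. SLC7A1, the arginine and lysine carrier, had a peak at a gene end in activated replicate 1 alone (5.21).

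The cytosolic aminoacyl-tRNA synthetases, which load amino acids onto tRNA, had the most gene ends with a region in activated replicate 2 of the lists, and none of their 20 genes had a region in all 4 libraries. A gene-end region was present at 4 and 9 of them in activated replicates 1 and 2, against 1 and 4 in control replicates 1 and 2. The same region was in both activated libraries at 4 and in both control libraries at 0. IARS1, for isoleucine, had 8.82 and 11.3 tags 7 bp from its start site, against no peak and 4.77. YARS1, for tyrosine, had 6.81 and 9.44 tags at a gene end, against 4.91 and no peak, and a second region inside the gene with 5.21 and 7.43 and no control peak. GARS1, for glycine, had 6.81 and 10.2 tags inside the gene, against no peak and 5.37. MARS1, for methionine, had 7.22 and 8.04 tags 3 bp from its start site, and NARS1, for asparagine, had 4.81 and 6.83, both with no control peak. In replicate 2 alone, SARS1 had 9.85 tags activated and 6.76 control, TARS1 had 7.84 and 3.78, and EPRS1 had 5.83 and 3.78. AARS1 (5.43) and WARS1 (3.62) had a peak in activated replicate 2 only.

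Stress factors and feedback genes were mostly seen in the deeper replicate. DDIT3, which encodes the apoptotic factor CHOP, had 5.83 tags in activated replicate 2 at 295 bp upstream of its start site and no other peak. TRIB3, a pseudokinase that restrains ATF4, had 6.63 tags 393 bp upstream of its start site, ATF6, a sensor of the unfolded protein response, had 5.02, and ATF3 had 6.63 inside the gene, each in activated replicate 2 alone. SESN2, a leucine sensor of the mTORC1 pathway, had 4.82 in the same library alone. CEBPB, a dimer partner of ATF4, had 7.22 and 12.7 tags in activated replicates 1 and 2, against no peak and 5.96 in control replicates 1 and 2. PPP1R15B, the constitutive partner of the eIF2α phosphatase, had 4.41 and 7.03 tags 254 bp upstream of its start site, against 6.25 and no peak. XBP1, a factor of the unfolded protein response, had 6.41 and 7.23 tags inside the gene, against 4.91 and 4.97, and did not pass (log2 change 0.39, limma adjusted p = 0.125).

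Hormone, translation and redox targets completed the common regions. FGF21, a stress hormone, had 42.5 and 33.6 tags in activated cells, against 22.3 and 14.5 in control cells, 67 bp upstream of its start site (chr19:48755347-48755568), and the groups did not overlap (log2 change 1.03 ± 0.32, SE, limma adjusted p = 0.0114). VLDLR, a lipoprotein receptor, had 10.8 and 12.1 tags against 6.25 and 5.17 (0.89 ± 0.29, SE, limma adjusted p = 0.0158). EIF4EBP1, the translation repressor 4E-BP1, had 12 and 19.7 tags against 10.7 and 10.1, and did not pass in limma (0.53, limma adjusted p = 0.125). It passed by edgeR with library totals (edgeR adjusted p = 0.0461). TXNRD1, a thioredoxin reductase, had 4.81 and 7.43 tags inside the gene and no control peak there. Over all lists, 13 common regions lay at a listed gene, 6 rose and 0 fell by limma, beside 39 of all 105 (37.1%), and by edgeR with library totals 10 of the 13 rose, beside 52 of 105 (49.5%). The 13 had a median log2 change of 0.71, beside 0.54 over the 105 common regions. All 13 were above 0 under scaling to depth, but 8 were above 0 after centring, 11 with TMM factors and 10 with DESeq2 size factors.

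**Figure D5:**
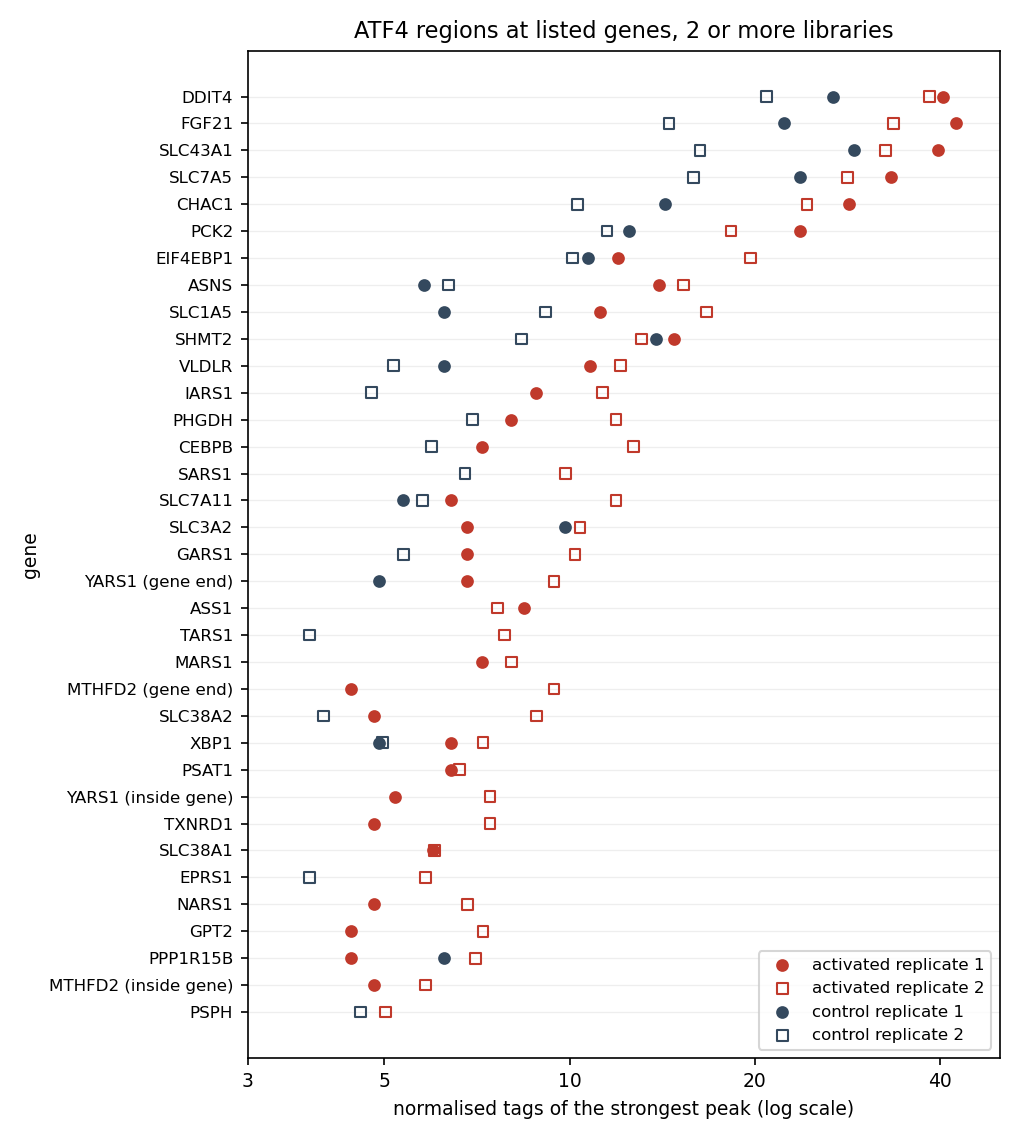
Normalised tags (log axis) of the 35 ATF4 regions at the 33 listed genes that had a peak in at least 2 libraries, ordered by the mean of the activated libraries; circles are replicate 1 and squares replicate 2, red is activated and dark blue control, and a library without a peak has no point. At the strongest genes, from DDIT4 down to PCK2, both activated points lie to the right of both control points.

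The 152 activated-only regions were weaker than the common ones. Their median was 5.21 and 5.63 tags in activated replicates 1 and 2, where the common regions had 10.4 and 11.5, and 123 of the 152 had under 8 tags in both libraries. In 27 the replicate 1 value lay under 4.46, the floor of control replicate 1. They lay at a gene end in 15 cases (9.87%, exact 95% interval 5.63 to 15.8%), inside genes in 62 and between genes in 75, and the common regions lay at a gene end in 14 of 105 (13.3%, 7.49 to 21.4%). These gene-end shares have overlapping intervals. Over all 5091 regions, 7.56% lay at a gene end, 42.8% inside genes and 49.6% between genes. The activated-only shares of 40.8% inside genes and 49.3% between genes were near these.

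The strongest activated-only regions, ranked by the lower of their values, lay mostly away from gene ends, as most of all 5091 regions did. The first, 39865 bp from SMOX, a spermine oxidase, had 9.62 and 11.3 tags in activated replicates 1 and 2. MAST4, a kinase, had 10 and 9.04 inside the gene, and DUSP28, a phosphatase, had 9.62 and 8.84 at a gene end. Next were regions 9024 bp from MMP17, a metalloproteinase (8.82 and 15.1), 5390 bp from DUSP8, a MAP kinase phosphatase (9.22 and 8.04), and 128848 bp from SLC1A4, a carrier of alanine, serine and cysteine (8.02 and 9.85). The rest were ASS1, given above, a region 6872 bp from CEP68, a centrosomal protein (7.62 and 9.44), and one 24652 bp from IER3, an early response gene (7.62 and 7.84). Of all 152, 6 regions had at least 8 tags in both activated libraries. No control library listed a peak at any of them. That leaves room for signal under 4.46 tags in control replicate 1 and 2.98 in control replicate 2. Signal above these floors can be unlisted too, where its fold over the surroundings is under 4.

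The 17 control-only regions had a lower median fold over background than the activated-only regions. Their median largest fold over background was 2.62, against 8.27 for the activated-only regions, and 11 lay between genes. The strongest lay on chromosome Y, 1045399 bp from CDY1, with 13.8 and 12.5 tags in control replicates 1 and 2 at a fold of at most 1.66. The second lay 26483 bp from PSMD14, a proteasome subunit, with 13.8 and 11.5 tags at a fold of at most 1.82. The next had 6.7 and 7.36 tags, 4747681 bp from OR11H1, and the last 2 of the first 5 lay over 1 M bases from LOC124904970, with 7.14 and 6.36 and with 6.25 and 6.36. Over all genes, 6 had a control-only region at an end or inside, and 0 of them were in the lists.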

How the data were processed

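ATF4 ChIP-seq of 2 activated and 2 control samples was deposited as 1 HOMER peak list per library, on hg38, with Bowtie 0.12.9 and HOMER named per the submitters' processing notes, without settings. The deposited signal is a normalized tag count per 10 M tags; total tags are a whole-number count in replicate 1, per the file headers, and scaled in replicate 2. Further columns of the authors are a score, a fraction called focus ratio, folds over background and surroundings, and a p-value for each fold. All peaks in a list have 1 width (171, 205, 185 and 213 bp in activated replicates 1 and 2 and control replicates 1 and 2), so merging depends on it.

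Depth was read from the step between low values, and dividing by it gave whole tags within 0.3 for 100% of peaks. Peaks were merged (Python 3.11.15, pandas 2.3.3) and annotated with RefSeq spans and promoters of GRCh38.p14. The strongest peak per region and library was tested at the 105 common regions by limma 3.58.1 with a trend on log2(tags + 1), without a replicate block, adjusted by Benjamini-Hochberg over regions at 0.05. The fold scale understates weak sites. Alternatives were edgeR 4.0.16 and DESeq2 1.42.0 on recovered tags (R 4.3.3), other pseudocounts, centring, filters, merging at 50% overlap and leaving out each library. The limma and edgeR steps were tested on simulated data. Intervals are exact (Clopper-Pearson) at 95%, for counting error only.

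Named were the 10 largest changes among called regions, the 10 strongest activated-only, 5 control-only and 8 common regions, the 5 lowest changes, and listed genes with a region in at least 2 libraries. One activated-only region that the rule names is not reported here. Members, lists and this rule were chosen with earlier results of these data known.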

Additional observations from a re-analysis of the deposited data

How the results depend on the processing

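The direction of the peak ratio (above 1) held under every alternative run. The number of common regions that rose was 39 and held within 1.5 times with pseudocounts 0.5 and 5, the sum of peaks, merging at 50% overlap, edgeR with library totals, and, chosen after seeing the data, only regions with a fold of at least 4 (36) or edgeR with a replicate block (35). It was 18 of 38 among regions with a mean of at least 10 tags, 4 with DESeq2 and library totals, and 0 with centring, edgeR with TMM or DESeq2 size factors, where 2, 8 and 0 were higher at an unadjusted p under 0.05. The number that fell was 0, but 9 with centring, of which 5 were among the 11 regions with a fold under 4. The median log2 change was −0.11 with centring, 0.0604 with TMM and 0.0185 with size factors, and the cause was not tested. With the limma replicate block 0 regions passed in either direction (smallest adjusted p 0.115, 37 higher and 0 lower unadjusted). The labels do not say whether the replicate numbers pair the samples. Depth went with the number, at 24.9 and 22.4 M tags in activated and control replicate 1, against 49.8 and 50.3 M in replicate 2. Deviations of same-numbered libraries correlated at 0.0976 over the 105 regions. With 2 pairs, and with regions chosen for a peak in all 4 libraries, that value cannot settle the pairing. Leaving out 1 library gave 0 higher and 0 lower (24 to 47 higher unadjusted), with a median of 0.43 to 0.67; a library left alone was taken to vary as much as the other pair.

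By presence, a fold of at least 4 left 1 control-only region. With 1 library left out, the remaining library alone defined its condition, and the counts were 113 to 172 regions in both conditions, 180 to 1952 activated-only and 25 to 1288 control-only, and the peak ratio was 1.02 to 1.91. A gene-end window of 5000 bp gave shares of 25.7% for activated-only and 26.7% for common regions, beside 21.3% of all 5091 regions. Depth limits presence, since signal under a library's floor is not listed.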

Other observations

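Some loci held several reproducible ATF4 regions. Within 50 kb of each other, 12 pairs of neighbouring regions were reproducible in at least 1 condition, of which 2 pairs were activated-only on both sides. One of these, 14118 bp apart and nearest to SLC45A1, a sugar transporter, had 6.81 and 7.64 tags at the first and 6.41 and 11.5 at the second region in activated replicates 1 and 2, with no control peak at either. Around TRIB3, 3 regions lay in a row. The first, nearest to NRSN2, had 15.2 and 15.7 tags in activated cells, against 14.3 and 9.34 in control cells (log2 change 0.39, limma adjusted p = 0.253). The middle one had 6.01 and 7.03 tags, against 4.91 and no peak, and the last had 14 and 16.1, against 13.8 and 11.7 (0.22, limma adjusted p = 0.512). None of these is the region at the TRIB3 start site given above.

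Near SLC7A5 an activated-only region with 4.81 and 6.83 tags lay 46571 bp from the common region inside the gene and 27549 bp from the one near KLHDC4. OXR1, an oxidation resistance gene, held 2 common regions 16355 bp apart. One had 18.4 and 11.5 tags in activated cells and 8.93 and 7.75 in control cells (log2 change 0.74, limma adjusted p = 0.0397), and the other had 8.42 and 8.24 in activated cells and 7.14 and 5.17 in control cells (0.40, limma adjusted p = 0.217). These loci were chosen after their values were seen.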
